A study of Mus musculus with 3 samples.

Results

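Claudins and occludin are membrane proteins of the tight junction, the belt that seals neighbouring epithelial cells near their apical edge. The genes described here are Cldn1, Cldn3, Cldn4, Cldn7, Cldn8 and Ocln, taken by symbol from the deposited tables, which makes 6 of 19050 gene symbols. The tables hold 15 other claudins, which are used below for comparison.

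Claudins join across the gap between cells and set which ions and solutes may pass; some seal the gap and others form pores through it. Occludin belongs to a second family of junction proteins and helps to organise the strands, and scaffold proteins of the zonula occludens family tie both to the actin cytoskeleton. In the mammary gland the luminal cells face the milk space and carry these junctions, while the basal (myoepithelial) cells lie outside them and contract; the junctions are known to tighten when milk secretion begins.

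The data are 3 droplet single-cell RNA-seq libraries of 1 group, made from sorted mammary epithelium of untreated female FVB/NJ mice aged 10 weeks. Per the labels, the number 4 glands of 4 mice were pooled and digested, and live epithelial cells were sorted with the dye SytoxBlue and antibodies to Ter119, CD31 and CD45, EpCAM and CD49f. The labels do not tell whether the libraries share a pool of mice, so p-values speak only of how far these libraries vary, and that variation may be technical. All comparisons are between cell classes of the same libraries, since no treatment or other group was studied.

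Each cell was given a class from the sum of its transcript counts (unique molecular identifiers, UMIs) over a few genes: Prlr, Areg, Pgr and Esr1 for hormone-responsive luminal cells, Csn3, Elf5, Kit and Aldh1a3 for luminal progenitor cells, and Krt5, Krt14 and Acta2 for basal cells. The top sum had to reach 5 UMIs and to be at least 3 times each other sum. None of the 6 junction genes entered this rule. Of 24352 cells kept, 2530 were hormone-responsive, 7952 luminal progenitor and 9763 basal, and 4107 had no class. Markers outside the rule stood highest in their own class in every library for 5 of 6 hormone-responsive, 6 of 6 luminal progenitor and 6 of 6 basal genes.

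The libraries held 18584156 to 30984706 UMIs in 6691 to 11120 barcodes, and 77 to 146 barcodes occurred in both libraries of a pair. The median depth was 3526.5 UMIs in hormone-responsive, 3213 in luminal progenitor and 1966 in basal cells. The smallest of the 9 sums, hormone-responsive cells of library 1, rested on 344 cells and 1248867 UMIs. Summed levels of 6 fibroblast markers ranged over the libraries from 151 to 192 CPM (UMIs of the genes scaled to a common library total) in hormone-responsive, 17.4 to 33.9 in luminal progenitor and 87.1 to 283 in basal cells. For 6 endothelial markers the ranges were 9.67 to 16.0, 7.37 to 10.3 and 7.08 to 18.4 CPM, for 6 pericyte markers 72.9 to 106, 78.6 to 91.4 and 20.3 to 30.5 CPM, and for 6 immune markers 0 to 3.49, 0.982 to 3.07 and 3.02 to 4.87 CPM, in the same order of classes. The endothelial marker Emcn was at 0 in hormone-responsive cells, as were the pericyte markers Kcnj8 and Abcc9 and the immune marker Cd3e; Kcnj8 was also at 0 in luminal progenitor cells. Without the cells that held at least 3 markers of any of these types, the calls of all 6 junction genes in the 3 class comparisons were the same as with them.

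Cldn3 and Cldn4 are sealing claudins and neighbours in the genome. On mm10 both lie on chromosome 5 as single-exon genes, Cldn4 on the minus strand at 134945119 to 134946934 and Cldn3 on the plus strand at 134986214 to 134987472, with 39279 bases between them. Cldn1, the sealing claudin of the skin barrier, has 4 exons on the minus strand of chromosome 16, at 26356642 to 26371841. Cldn7 has 5 exons on the plus strand of chromosome 11 (69964779 to 69967885), Cldn8 is a single-exon gene on the minus strand of chromosome 16 (88560828 to 88563183), and Ocln has 9 exons on the minus strand of chromosome 13 (100496507 to 100552718).

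The promoters of the neighbouring pair, which stood high in both luminal classes, and of Cldn1, which stood high in luminal progenitor cells alone, are given to show how their letters differ. Each run is the 250 bases before the gene's start, 5′ to 3′ on the gene's strand, from the RefSeq table for GRCm38.p6, at chr5:134985964-134986213 (Cldn3, plus), chr5:134946935-134947184 (Cldn4, minus) and chr16:26371840-26372089 (Cldn1, minus). Capitals mark the E-box CACCTG, to which repressors of the Snail family bind, and the GC box GGGCGG, to which Sp1 binds, on either strand (CAGGTG and CCGCCC in reverse).
Cldn3: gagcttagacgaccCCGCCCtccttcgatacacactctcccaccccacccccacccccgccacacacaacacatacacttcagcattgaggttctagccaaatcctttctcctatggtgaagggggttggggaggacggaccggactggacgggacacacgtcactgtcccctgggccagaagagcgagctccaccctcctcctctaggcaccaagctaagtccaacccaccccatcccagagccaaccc
Cldn4: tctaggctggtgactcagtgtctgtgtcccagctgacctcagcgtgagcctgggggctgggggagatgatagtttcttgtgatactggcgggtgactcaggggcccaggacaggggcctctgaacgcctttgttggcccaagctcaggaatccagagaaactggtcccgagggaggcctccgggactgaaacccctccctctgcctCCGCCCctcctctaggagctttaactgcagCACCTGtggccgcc
Cldn1: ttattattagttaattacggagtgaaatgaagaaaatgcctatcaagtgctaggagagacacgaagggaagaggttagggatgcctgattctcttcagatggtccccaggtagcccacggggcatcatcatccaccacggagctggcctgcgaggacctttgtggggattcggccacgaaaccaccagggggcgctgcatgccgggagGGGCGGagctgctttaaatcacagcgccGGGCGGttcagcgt
The Cldn4 run holds 1 E-box at position -14 from the start and 1 GC box at -44. The Cldn3 run holds 1 GC box at -236 and the Cldn1 run holds 2 GC boxes, and neither has an E-box in this window. Of 32851 promoter windows of the same length, 17.2% hold the E-box and 32.7% the GC box. On either strand, the grainyhead motif AACCNGTT is held by 1.79% of these windows, the ETS core CCGGAA by 12.0% and the TATA box TATAAA by 12.4%; these 3 runs hold none of them. Promoter entries matched 5 of the 6 genes. For Cldn7 and Ocln the table has 2 windows each, not printed here; 1 window of each gene holds 2 E-boxes, and 3 of these 4 windows hold the ETS core. These matches describe letters and do not show binding.

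Levels of the 6 genes are given first for each library as CPM scaled with TMM factors (which correct for composition), in the order of libraries 1, 2 and 3, before any test. Each luminal class stood above basal cells for 5 of the genes, and Cldn1 took another pattern.

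Cldn3 stood at 506, 396 and 486 CPM in hormone-responsive cells, 590, 671 and 858 CPM in luminal progenitor cells and 27.7, 24.2 and 42.4 CPM in basal cells. The 3 classes did not overlap: luminal progenitor cells were highest, hormone-responsive cells next and basal cells far below both. Cldn4 stood at 413, 542 and 761 CPM in hormone-responsive cells, 167, 357 and 825 CPM in luminal progenitor cells and 18.1, 17.9 and 42.2 CPM in basal cells. Here the luminal classes overlapped widely and only basal cells lay apart, and library 3 was the highest in every class.

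Cldn7, which binds EpCAM and also lies along the lateral membrane, stood at 283, 258 and 310 CPM in hormone-responsive cells, 291, 296 and 307 CPM in luminal progenitor cells and 14.3, 14.9 and 14.2 CPM in basal cells. Its luminal levels overlapped, and libraries differed little within a class. Cldn8, a sealing claudin known from the distal kidney tubule, stood at 39.5, 48.9 and 52.2 CPM in hormone-responsive cells, 19.8, 26.0 and 21.8 CPM in luminal progenitor cells and 0.934, 1.24 and 2.39 CPM in basal cells. All hormone-responsive values lay above all luminal progenitor values. The basal values rested on 3, 13 and 17 UMIs.

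Ocln, which encodes occludin, stood at 19.0, 26.6 and 33.8 CPM in hormone-responsive cells, 38.6, 45.2 and 60.8 CPM in luminal progenitor cells and 4.36, 1.43 and 4.07 CPM in basal cells, with no overlap between classes. Cldn1 stood at 0.732, 0.789 and 0.729 CPM in hormone-responsive cells, 33.9, 41.2 and 40.5 CPM in luminal progenitor cells and 4.98, 3.71 and 5.75 CPM in basal cells. The hormone-responsive values rested on 1, 3 and 3 UMIs and were the lowest of all classes in each library. Among the 6 genes, Cldn1 was the one whose hormone-responsive values lay below the basal values.

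**Figure D1:**
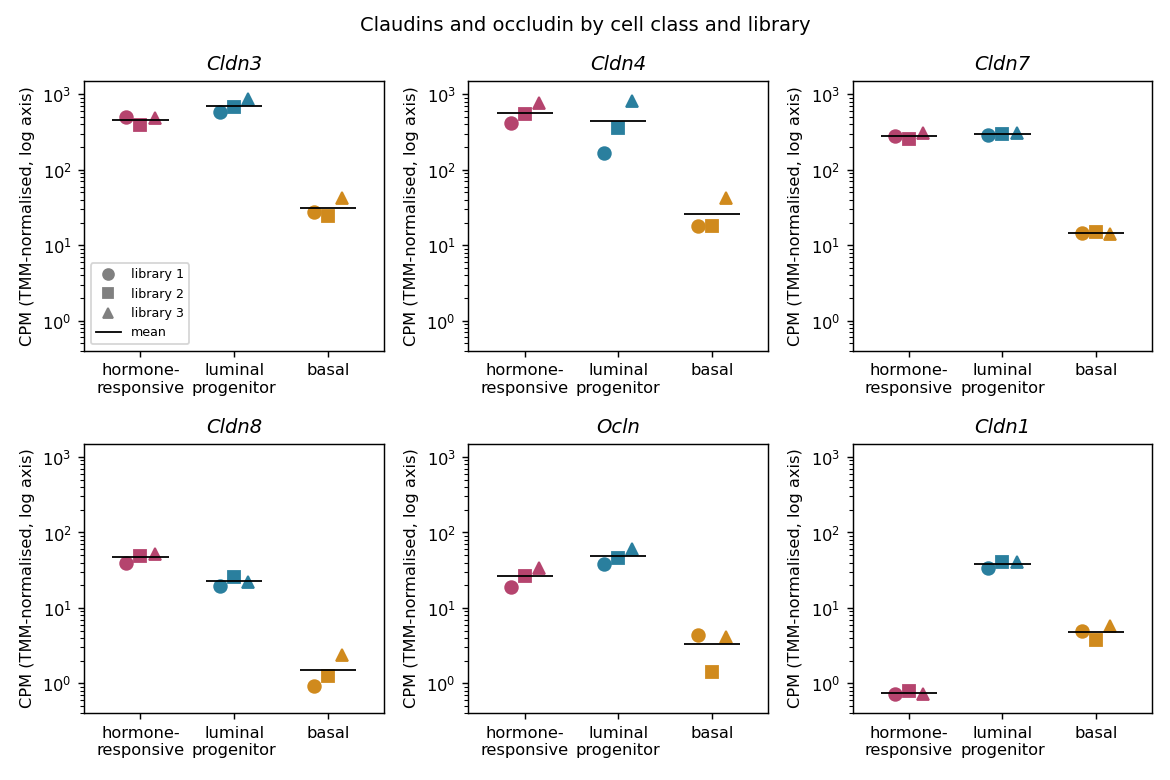
Level of each gene (CPM, TMM-normalised, log axis) in hormone-responsive, luminal progenitor and basal cells; points are libraries 1 to 3 and lines are means. Basal points lie far below both luminal classes for 5 genes, and Cldn1 lies below 1 CPM in hormone-responsive cells and at 33.9 to 41.2 CPM in luminal progenitor cells.

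Hormone-responsive cells had higher levels than basal cells of the sealing claudins Cldn3, Cldn4 and Cldn8, of Cldn7 and of Ocln, and a lower level of Cldn1. Thus 5 of 6 genes were called higher, beside 15.2% of all 12643 genes tested, and 1 of 6 lower, beside 20.7%, with 35.9% of all genes called either way. A call needs both an adjusted p under 0.05 (edgeR's quasi-likelihood test, Benjamini-Hochberg over all genes tested) and a log2 fold change of 1 or more in size. Fold changes below are fitted log2 values ± the SD over the 3 log2 ratios taken within libraries. Each of the 6 genes had 1 sign in 3 of 3 libraries in both comparisons with basal cells.

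Cldn8 averaged 46.9 ± 6.59 CPM in hormone-responsive and 1.52 ± 0.766 CPM in basal cells (SD, n = 3), a log2 fold change of 4.92 ± 0.41 (edgeR, adjusted p = 9.2e-07). Cldn4 averaged 572 ± 176 and 26.1 ± 14.0 CPM in the same classes, a log2 fold change of 4.57 ± 0.37 (edgeR, adjusted p = 2.85e-06). For Cldn7 the log2 fold change was 4.28 ± 0.17 (edgeR, adjusted p = 1.62e-07) and for Cldn3 it was 3.91 ± 0.35 (edgeR, adjusted p = 6.2e-07). Ocln rose by 3.22 ± 0.95 on the log2 scale (edgeR, adjusted p = 3.5e-05). The median log2 fold change of the 6 genes was 4.10, beside 0.00 for all genes tested.

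Cldn1 fell in hormone-responsive relative to basal cells (edgeR, adjusted p = 0.000314). With 1 to 3 UMIs per library, its size is better read as a ratio of levels per total UMIs with a counting interval: the hormone-responsive level was 16.5% of the basal level in library 1 (exact 95% interval 0.395 to 107), 21.9% in library 2 (4.33 to 68.9) and 13.5% in library 3 (2.67 to 42.3). The interval of library 1 reaches past equality. Intervals here cover counting error only.

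Luminal progenitor cells had higher levels than basal cells of all 6 genes, beside 14.0% of all 12643 genes called higher and 31.3% called either way in this comparison. The basal sums are the same as in the preceding comparison, so the 2 comparisons share samples. Cldn3 averaged 706 ± 138 CPM in luminal progenitor and 31.4 ± 9.66 CPM in basal cells, a log2 fold change of 4.51 ± 0.24 (edgeR, adjusted p = 3.37e-07). Cldn7 had a log2 fold change of 4.36 ± 0.07 (edgeR, adjusted p = 2.02e-07), with the smallest spread between libraries of the 6 genes. Ocln averaged 48.2 ± 11.4 and 3.29 ± 1.62 CPM, a log2 fold change of 4.06 ± 0.83 (edgeR, adjusted p = 6.28e-06).

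Cldn4 averaged 450 ± 339 CPM in luminal progenitor and 26.1 ± 14.0 CPM in basal cells, a log2 fold change of 3.99 ± 0.64 (edgeR, adjusted p = 5.56e-06). Cldn8 had a log2 fold change of 3.86 ± 0.59 (edgeR, adjusted p = 2.88e-06). Cldn1 averaged 38.5 ± 4.03 and 4.81 ± 1.03 CPM, and its log2 fold change of 3.04 ± 0.37 (edgeR, adjusted p = 2.27e-06) was the smallest of the 6. The median of the 6 genes was 4.03, beside 0.08 for all genes tested.

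Between the luminal classes, Cldn8 was called higher and Cldn1 lower in hormone-responsive cells, and the other 4 genes were not called. This makes 1 of 6 higher, beside 10.4% of all 12643 genes, and 1 of 6 lower, beside 14.1%, with 24.5% of all genes called either way, so the share called among these genes was near the background. Cldn8 averaged 46.9 ± 6.59 CPM in hormone-responsive and 22.6 ± 3.18 CPM in luminal progenitor cells, a log2 fold change of 1.05 ± 0.18 (edgeR, adjusted p = 0.00151). It lay just past the size threshold: without library 3 it was 0.95 (edgeR, adjusted p = 0.018), and with sums thinned to equal totals 0.95 (edgeR, adjusted p = 0.0167), both under 1.

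Cldn1 fell in hormone-responsive relative to luminal progenitor cells (edgeR, adjusted p = 1.36e-06). By total UMIs, the hormone-responsive level was 2.37% of the luminal progenitor level in library 1 (exact 95% interval 0.0598 to 13.3), 2.04% in library 2 (0.419 to 6.04) and 2.04% in library 3 (0.42 to 6.01). Even the upper ends of these intervals lie far below equality.

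Cldn3 had a log2 fold change of -0.60 ± 0.33 between hormone-responsive and luminal progenitor cells (edgeR, adjusted p = 0.014) and Ocln one of -0.84 ± 0.13 (edgeR, adjusted p = 0.0215). Both passed the p threshold with 1 sign in 3 of 3 libraries but were smaller than the size a call needs. Without library 2 or 3, Cldn3 also missed the p threshold (edgeR, adjusted p up to 0.14), as did Ocln without library 3 (edgeR, adjusted p = 0.159). Cldn7 had -0.07 ± 0.11 (edgeR, adjusted p = 0.61), which turned to 0.062 with scaling by total counts alone and to 0.0091 with thinned sums, so no order of the luminal classes is read for it. Cldn4 had 0.58 ± 0.71 (edgeR, adjusted p = 0.0893), with the same sign in 2 of 3 libraries; over its alternatives the log2 fold change ran from 0.26 to 0.93 and the adjusted p from 0.0246 to 0.652.

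**Figure D2:**
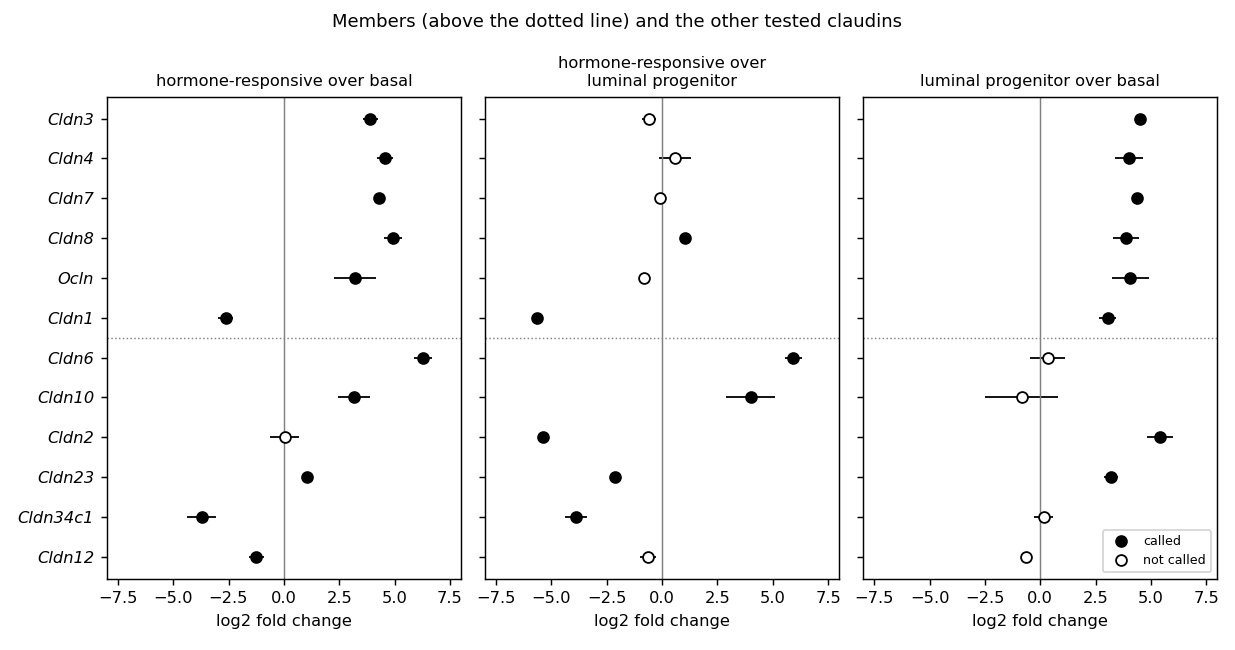
Fitted log2 fold change of the 6 genes (above the dotted line) and of 6 other tested claudins in 3 comparisons of cell classes; bars are the SD over 3 log2 ratios taken within libraries, filled points were called and open points were not. Points for Cldn1 and Cldn2 against hormone-responsive cells rest on 1 to 3 and 0 to 1 UMIs per library there, so their positions depend on the prior count.

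Cldn4 differed between libraries more than most genes. In luminal progenitor cells its level per total UMIs was 166, 352 and 746 CPM in libraries 1, 2 and 3. Set against the mean of the other libraries, that is a log2 difference of -1.72 in library 1 and 1.52 in library 3. Only 1.46% of 6169 genes of at least 20 CPM in this class lay lower in library 1, and 99.4% lay lower in library 3. Over 2-fold deviations of this kind were seen for 4.13% of genes on the low side in library 1 and for 1.67% on the high side in library 3.

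In basal cells Cldn4 stood at 1.14 in library 3 on the same scale, above 99.9% of 6133 genes, and in hormone-responsive cells at 0.61, above 97.1% of 6256 genes. The ratio of hormone-responsive to luminal progenitor cells was 272% in library 1 (exact 95% interval 247 to 299), 162% in library 2 (152 to 172) and 105% in library 3 (101 to 109). By total UMIs the hormone-responsive level was thus the higher in each library, beyond counting error. With TMM factors library 3 had the opposite order, and the size differed widely between libraries. Each class has 1 sum per library and the labels give no contrast between libraries, so no test between libraries was made.

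Shares of cells with at least 1 UMI were compared after thinning every cell to 1500 UMIs, which left out the shallower cells (20, 76 and 93 hormone-responsive, 339, 110 and 209 luminal progenitor and 266, 614 and 1295 basal cells of libraries 1 to 3). Cldn3 had a UMI in 51.3% ± 6.52 of hormone-responsive, 61.7% ± 4.63 of luminal progenitor and 3.82% ± 1.29 of basal cells (SD, n = 3). Without thinning the shares were 75.7%, 82.9% and 5.70%. Cldn4 had a UMI in 53.9% ± 8.26, 34.4% ± 17.3 and 3.71% ± 1.71 of the same classes, and in 74.9%, 51.8% and 4.73% without thinning. Cldn7 had 36.4% ± 4.77, 32.7% ± 0.501 and 1.93% ± 0.476 (60.6%, 56.5% and 2.92% without thinning); the luminal order goes against its CPM and is not read.

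The other genes were found in fewer cells. Cldn8 had a UMI in 7.68% ± 1.04 of hormone-responsive, 3.14% ± 0.289 of luminal progenitor and 0.182% ± 0.16 of basal cells, against 15.5%, 7.29% and 0.311% without thinning. Ocln had a UMI in 4.26% ± 0.958, 6.51% ± 1.34 and 0.438% ± 0.126, against 9.33%, 15.1% and 0.651%. Cldn1 had a UMI in 0 of 324, 0 of 902 and 1 of 1115 thinned hormone-responsive cells; taken as 3 cells, a count of 0 allows a share of cells with a UMI of up to 0.926% and 0.333% in libraries 1 and 2, and the exact 95% intervals end at 1.13% and 0.408%. These limits do not bound the share of cells that express the gene. In the other classes it had a UMI in 5.14% ± 0.826 of luminal progenitor and 0.64% ± 0.183 of basal cells. Without thinning its shares were 0.282%, 11.6% and 0.954% in hormone-responsive, luminal progenitor and basal cells. Shares are given as a description and were not tested.

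**Figure D3:**
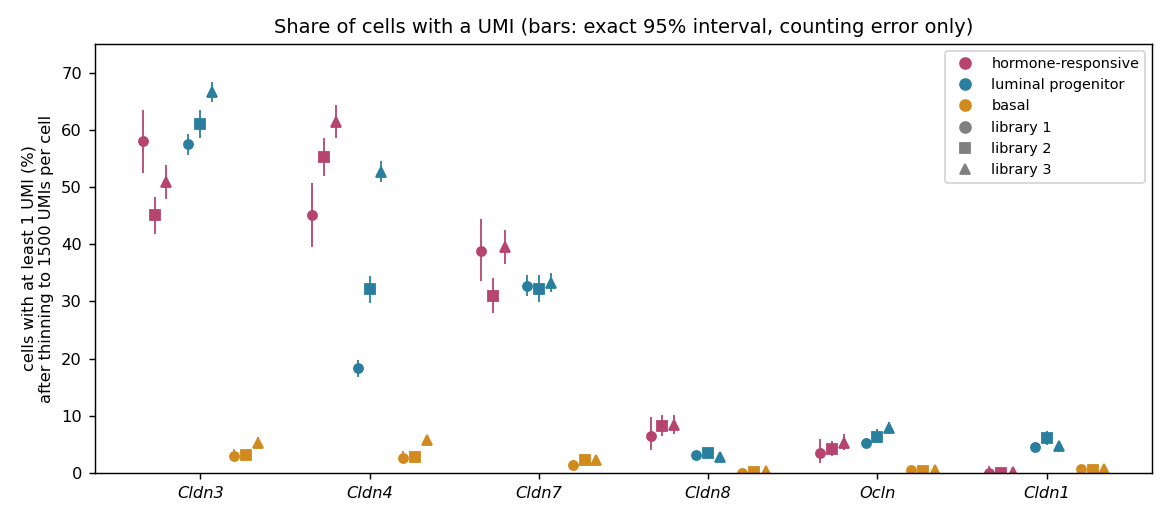
Share of cells (%) with at least 1 UMI of each gene after thinning to 1500 UMIs per cell, by class and library; bars are exact 95% binomial intervals, which cover counting error only. The luminal points of Cldn3, Cldn4 and Cldn7 lie far above the basal ones, and the luminal progenitor points of Cldn4 spread from 18.3% in library 1 to 52.7% in library 3.

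Single cells carried several of these transcripts together in the luminal classes. After thinning, 13.6%, 12.2% and 18.1% of hormone-responsive cells of libraries 1 to 3 had UMIs of at least 3 of the 6 genes, as did 6.85%, 12.3% and 18.6% of luminal progenitor cells and 0%, 0.0269% and 0.0759% of basal cells. None of the 6 was found in 92.0%, 91.4% and 86.4% of basal cells. Within luminal progenitor cells, Cldn3 was found in 58.4%, 65.1% and 67.2% of cells with a Cldn7 UMI in libraries 1 to 3 and in 57.0%, 59.2% and 66.4% of those without. For the neighbours, Cldn3 was found in 58.7%, 60.9% and 68.9% of luminal progenitor cells with a Cldn4 UMI and in 57.2%, 61.2% and 64.1% of those without. Ocln was found in 9.09%, 9.62% and 11.8% of luminal progenitor cells with a Cldn8 UMI and in 5.13%, 6.23% and 7.81% of those without, with 52 to 88 cells holding Cldn8. In basal cells, Cldn3 was found in 11.8%, 6.17% and 11.9% of the 17, 81 and 59 cells with a Cldn7 UMI and in 2.89%, 3.07% and 5.16% of those without. Of these 4 pairs, all but Cldn3 with Cldn4 had the larger share in cells with the other gene in each library. Other pairs went the opposite way. Cldn3 was found in 50%, 50% and 63.5% of luminal progenitor cells with a Cldn8 UMI and in 57.7%, 61.5% and 66.7% of those without. Cldn4 was found in 43.7%, 51.6% and 61.4% of hormone-responsive cells with a Cldn7 UMI and in 46.0%, 56.8% and 61.5% of those without. The pairs named are examples, so no general pattern is read, and pairs were not tested.

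Free RNA in the droplets can put transcripts of luminal cells into basal barcodes, so the basal levels were set beside those of 9 milk and secretory genes of luminal progenitor cells (Csn2, Csn1s1, Csn1s2a, Wap, Lalba, Btn1a1, Lao1, Muc15 and Thrsp). By total UMIs, the basal level of these genes was a median of 2.52%, 1.96% and 2.43% of the luminal progenitor level in libraries 1, 2 and 3. Their ratios ranged from 0% to 5.16%, 1.72% to 3.50% and 1.57% to 4.14%. For the 6 junction genes the same ratio ranged from 4.58% to 14.3%, 3.27% to 9.34% and 4.92% to 15.1%. Cldn1 was highest in each library (14.3%, 9.34% and 15.1%). The ranges of the junction and secretory genes overlapped in libraries 1 and 2. All junction genes but Cldn1 are also high in hormone-responsive cells, unlike the secretory genes, so the ratios are not like for like. In hormone-responsive cells the secretory genes stood at medians of 1.40%, 1.99% and 1.85% of their luminal progenitor level, next to 2.37%, 2.04% and 2.04% for Cldn1. These Cldn1 ratios rest on 1, 3 and 3 UMIs, and their exact 95% intervals end at 13.3%, 6.04% and 6.01%. The few Cldn1 UMIs of hormone-responsive cells are not read as expression, and whether they are free RNA was not tested. The part of free RNA in the basal values was not tested.

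**Figure D4:**
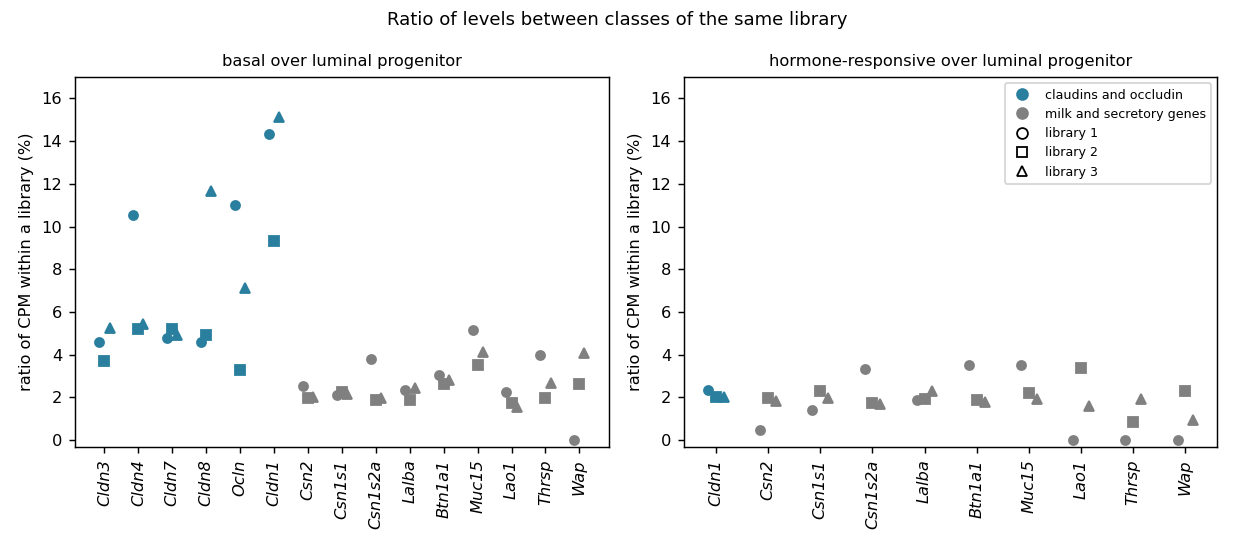
Ratio (%) of the level per total UMIs in basal over luminal progenitor cells (left) and hormone-responsive over luminal progenitor cells (right), for the junction genes and for 9 milk and secretory genes; points are libraries. The junction genes lie at or above most secretory genes on the left, and Cldn1 lies among the secretory genes on the right.

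Among luminal progenitor cells, those with at least 2% of UMIs from 6 milk protein genes (Csn1s1, Csn1s2a, Csn1s2b, Csn2, Wap and Lalba) were compared with the rest in libraries 2 and 3; library 1 had only 16 such cells and was left out. The milk genes and Csn3 were removed from the tables first. Cldn4 stood at 413 and 863 CPM in casein-rich cells, against 328 and 730 CPM in other luminal progenitor cells of libraries 2 and 3. It was higher in both, by a log2 fold change of 0.34 ± 0.03 (edgeR, adjusted p = 0.00132; n = 2), which is under the size a call needs. Without the library block its adjusted p was 0.918 in edgeR, and DESeq2 gave 0.444; the range over its alternatives was 0.000906 to 0.918.

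Of the 6 genes, 0 were called in this comparison by edgeR or by DESeq2, beside 3.02% of 10750 genes (1.36% higher and 1.67% lower) in edgeR; 3 of the 6 had an unadjusted p below 0.05 in edgeR. Cldn1 stood at 51.0 and 40.2 CPM in casein-rich cells, against 35.6 and 36.5 CPM in the other cells (log2 fold change 0.37 ± 0.24; edgeR, adjusted p = 0.0932). Cldn8 stood at 21.4 and 16.2 CPM, against 29.8 and 21.5 CPM (-0.39 ± 0.08; edgeR, adjusted p = 0.218). For Cldn3, Ocln and Cldn7 the log2 fold changes were -0.13, -0.19 and 0.02. Only 2 libraries enter here, and without the library block edgeR called 0 of all genes (899 at an unadjusted p below 0.05), while DESeq2 called 90 against 325.

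Of the 15 other claudins in the tables, 6 passed the filter on low counts, and they divided between the classes. Cldn6, a claudin of embryonic epithelia, stood at 46.1 to 68.0 CPM in hormone-responsive cells, 0.394 to 1.41 CPM in luminal progenitor cells and 0.571 to 0.934 CPM in basal cells. It was higher in hormone-responsive than in basal cells by a log2 fold change of 6.27 ± 0.39 and than in luminal progenitor cells by 5.93 ± 0.39 (edgeR, adjusted p = 5.38e-07 in both). The lower levels rested on 4 to 15 UMIs per library in luminal progenitor and 3 to 6 in basal cells, so the size of these fold changes depends on the prior count. Cldn10, a pore-forming claudin, stood at 195 to 328 CPM in hormone-responsive cells, 7.31 to 41.7 CPM in luminal progenitor cells and 20.5 to 33.4 CPM in basal cells, higher in hormone-responsive than in basal cells by 3.17 ± 0.72 and than in luminal progenitor cells by 4.00 ± 1.11 (edgeR, adjusted p = 0.000622 and 0.000361).

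Cldn10 had its highest luminal progenitor level, 41.7 CPM, in library 1, against 8.73 and 7.31 CPM in libraries 2 and 3. Its difference between luminal progenitor and basal cells was not called (log2 fold change -0.84 ± 1.65), but was -1.997 without library 1 (edgeR, adjusted p = 8.83e-06). Cldn2, a claudin that forms pores for cations and water, had 0, 0 and 1 UMIs in hormone-responsive cells, 43, 27 and 71 UMIs in luminal progenitor cells and 1, 0 and 1 UMIs in basal cells of libraries 1 to 3. It was called lower in hormone-responsive than in luminal progenitor cells and higher in luminal progenitor than in basal cells (edgeR, adjusted p = 0.000618 and 0.000108), and its fitted fold changes are not given because they depend on the prior count.

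Cldn23 stood at 2.67 ± 0.409 CPM in hormone-responsive, 12.1 ± 0.773 CPM in luminal progenitor and 1.25 ± 0.278 CPM in basal cells, called higher in luminal progenitor than in basal cells (3.18 ± 0.30; edgeR, adjusted p = 9.45e-06) and lower in hormone-responsive than in luminal progenitor cells (-2.13 ± 0.24; edgeR, adjusted p = 0.000211). Its call in hormone-responsive over basal cells (1.05 ± 0.07, edgeR, adjusted p = 0.022) was lost in 9 of 15 alternatives. These were each library left out, DESeq2, its size factors, no filter, a class margin of 2, no doublet removal and thinned sums. With thinned sums the log2 fold change was 0.085, and with DESeq2 the adjusted p was 0.0876. Cldn12 was lower in hormone-responsive than in basal cells, by -1.25 ± 0.34 (edgeR, adjusted p = 0.000582). Cldn34c1, a member of a family of close copies whose counts are uncertain, had 0, 1 and 2 UMIs in hormone-responsive cells, against 37, 38 and 52 in luminal progenitor and 14, 40 and 35 in basal cells, and was called lower in hormone-responsive cells in both comparisons. In casein-rich over other luminal progenitor cells, Cldn23 (-1.21 ± 0.72) and Cldn10 (-1.01 ± 0.52) were called lower (edgeR, adjusted p = 0.000836 and 0.0338). Neither was called without the library block. DESeq2 gave no adjusted p for either gene, so it gives no verdict on them. The Cldn10 call was also lost with DESeq2's size factors, with total counts alone and with a 5% casein split.

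Other proteins of the junction were read from 6 lists. Their counts stand beside the shares of all 12643 genes called higher and lower. These were 15.2% and 20.7% in hormone-responsive over basal cells and 14.0% and 17.3% in luminal progenitor over basal cells. In hormone-responsive over luminal progenitor cells they were 10.4% and 14.1%. Counts near these shares are not read as a result about a list. Of 12 scaffold and plaque proteins, which anchor claudins to the cytoskeleton, 3 were higher and 5 lower in hormone-responsive than in basal cells, 4 higher and 3 lower in luminal progenitor than in basal cells, and 0 higher and 6 lower in hormone-responsive than in luminal progenitor cells; DESeq2 gave the same counts. The medians were -0.36, 0.18 and -0.97, beside 0.00, 0.08 and -0.05 for all genes. The scaffold Tjp3 averaged 51.6 ± 9.25 CPM in hormone-responsive, 133 ± 40.3 CPM in luminal progenitor and 5.28 ± 1.11 CPM in basal cells, and differed in all 3 comparisons (3.22 ± 0.55 in hormone-responsive over basal, 4.60 ± 0.27 in luminal progenitor over basal and -1.37 ± 0.68 in hormone-responsive over luminal progenitor; edgeR, adjusted p at most 0.00137).

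Cingulin (Cgn), which links junctions to myosin, was higher in hormone-responsive than in basal cells by 4.15 ± 0.15 and in luminal progenitor than in basal cells by 4.33 ± 0.25. Its relative Cgnl1 was higher in luminal progenitor than in basal cells by 2.56 ± 0.25 and in hormone-responsive than in basal cells by 1.34 ± 0.07. Cgnl1 was lower in hormone-responsive than in luminal progenitor cells by -1.22 ± 0.33. Towards basal cells, the multi-domain scaffold Mpdz had -3.76 ± 1.02 in hormone-responsive and -2.85 ± 0.64 in luminal progenitor over basal cells, and Amotl1, Magi1 and Amotl2 had -2.26 ± 0.46, -1.56 ± 0.29 and -1.22 ± 0.28 in hormone-responsive over basal cells. Between luminal progenitor and basal cells, Amotl1 and Magi1 had -1.09 ± 0.05 and -1.10 ± 0.04. Magi3 (-1.72 ± 0.16) and Amotl2 (-1.57 ± 0.11) were lower in hormone-responsive than in luminal progenitor cells. The principal scaffold Tjp1 was named after its values were seen: it averaged 51.7 ± 3.48 CPM in hormone-responsive, 71.8 ± 3.01 CPM in luminal progenitor and 65.6 ± 3.76 CPM in basal cells and was called in no comparison.

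Of 10 other transmembrane junction proteins, 5 were higher and 3 lower in hormone-responsive than in basal cells (median 0.90), 4 higher and 3 lower in luminal progenitor than in basal cells (median 0.40), and 0 were called between the luminal classes by edgeR or DESeq2 (median 0.03; 4 at an unadjusted p below 0.05 in edgeR). Tricellulin (Marveld2), which seals corners where several cells meet, was higher in luminal progenitor than in basal cells by 4.00 ± 0.19. Its relative Marveld3 was higher there by 4.01 ± 0.37. In hormone-responsive over basal cells Marveld2 had 3.50 ± 0.35 and Marveld3 had 3.64 ± 0.51. The apical polarity protein Crb3 was higher in hormone-responsive than in basal cells by 4.22 ± 0.94 and in luminal progenitor than in basal cells by 3.66 ± 0.96. The adhesion molecules Jam2 and Jam3 and Ildr2, of the angulin family, were lower in both luminal classes than in basal cells. Jam2 averaged 0.25 ± 0.243 CPM in hormone-responsive, 0.844 ± 0.217 CPM in luminal progenitor and 7.17 ± 1.52 CPM in basal cells, and Ildr2 0.332 ± 0.371, 0.941 ± 0.576 and 7.42 ± 1.95 CPM. No fold changes are given for them, since their luminal levels rest on few UMIs. Jam3 rested on few UMIs, and its call in hormone-responsive over basal cells was lost without library 2. It was also lost with class margins of 2 and of 5 (edgeR, adjusted p = 0.0542 and 0.051).

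Of 13 polarity proteins, which place the junction along the cell's axis, 2 were higher and 2 lower in hormone-responsive than in basal cells (median 0.19), 3 higher and 1 lower in luminal progenitor than in basal cells (median -0.17), and 0 higher and 2 lower in hormone-responsive than in luminal progenitor cells (median -0.06). Pard6g, a subunit of the Par complex, was low in both luminal classes, at 1.95 ± 1.30 CPM in hormone-responsive and 11.4 ± 5.10 CPM in luminal progenitor cells, against 83.7 ± 2.91 CPM in basal cells. Its log2 fold changes were -5.46 ± 0.84 and -2.96 ± 0.69 against basal cells and -2.50 ± 0.63 in hormone-responsive over luminal progenitor cells. Pard6g had a low level in hormone-responsive cells, so its fold changes in those cells are uncertain in size. Its relative Pard6b went the other way in luminal progenitor over basal cells (2.19 ± 0.84), and its call as lower in hormone-responsive than in luminal progenitor cells (-1.22 ± 0.55) was lost without library 2, without library 3 and with thinned sums. The kinase Prkcz (1.88 ± 0.25 and 2.61 ± 0.17) and the basolateral protein Llgl2 (1.93 ± 0.12 and 2.04 ± 0.11) were higher in hormone-responsive and luminal progenitor than in basal cells.

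EpCAM, membrane proteases and their inhibitors formed the list with the highest share of members above basal cells among the 6: of 9 genes, 7 were higher and 1 lower in hormone-responsive than in basal cells (median 2.50), and 8 were higher and 0 lower in luminal progenitor than in basal cells (median 2.28). Between the luminal classes 1 was higher and 0 lower (median -0.05). DESeq2 gave 7 higher and 1 lower in luminal progenitor over basal cells and the same counts as edgeR in the other 2 class comparisons. The cells were sorted with an antibody to EpCAM, so Epcam itself is not read as a difference. The trafficking GTPase Rab25 was higher in hormone-responsive than in basal cells by 3.63 ± 0.33 and in luminal progenitor than in basal cells by 3.68 ± 0.14. The protease prostasin (Prss8) was higher in luminal progenitor than in basal cells by 3.30 ± 0.21. The protease inhibitor Spint1 was higher in hormone-responsive than in basal cells, by 2.87 ± 0.32. Cldnd1, a distant relative of the claudins, was lower in hormone-responsive than in basal cells (-1.42 ± 0.23).

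The serine protease Tmprss2 averaged 553 ± 374 CPM in hormone-responsive, 52.7 ± 17.9 CPM in luminal progenitor and 8.20 ± 3.95 CPM in basal cells. It was called higher in hormone-responsive than in basal cells (5.97 ± 0.33; edgeR, adjusted p = 2.4e-07) and than in luminal progenitor cells (3.25 ± 0.46; edgeR, adjusted p = 2.41e-06), and in luminal progenitor than in basal cells (2.73 ± 0.25; edgeR, adjusted p = 5.88e-06).

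Adherens junctions and desmosomes, which hold cells together below the tight junction, had members on both sides. Of 18 tested genes, 4 were higher and 7 lower in hormone-responsive than in basal cells (median -0.18), 3 higher and 7 lower in luminal progenitor than in basal cells (median -0.76), and 2 higher and 0 lower in hormone-responsive than in luminal progenitor cells (median 0.07). E-cadherin (Cdh1) was higher in hormone-responsive than in basal cells by 1.68 ± 0.23 and in luminal progenitor than in basal cells by 1.52 ± 0.13. P-cadherin (Cdh3) was lower by -5.71 ± 0.60 and -6.00 ± 0.72. The nectins divided likewise: Pvrl4 (nectin 4) was higher in the luminal classes by 4.28 ± 0.07 and 4.21 ± 0.03, and Pvrl3 (nectin 3) was lower in both, at 1.10 ± 0.972 CPM in hormone-responsive and 2.13 ± 0.47 CPM in luminal progenitor cells, against 40.3 ± 6.53 CPM in basal cells.

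Among desmosome genes, plakophilin 2 (Pkp2) was higher than in basal cells in hormone-responsive (4.29 ± 0.25) and luminal progenitor cells (4.70 ± 0.17), while desmocollin 3 (Dsc3) was lower in both. Desmoplakin (Dsp) averaged 121 ± 7.73 CPM in hormone-responsive and 29.4 ± 23.0 CPM in luminal progenitor cells, and desmocollin 2 (Dsc2) 30.5 ± 5.94 and 6.83 ± 3.90 CPM. Both were called higher in hormone-responsive cells, by 2.23 ± 1.13 and 2.23 ± 0.79 (edgeR, adjusted p = 0.00171 and 0.00036).

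Of 11 tested transcription factors tied to epithelial junction genes, 2 were higher and 3 lower in hormone-responsive than in basal cells (median -0.43), 4 higher and 3 lower in luminal progenitor than in basal cells (median 0.22), and 0 higher and 3 lower in hormone-responsive than in luminal progenitor cells (median -0.54). Snai2, a repressor known to bind E-boxes in claudin and occludin promoters, averaged 0.77 ± 0.79 CPM in hormone-responsive, 1.57 ± 0.106 CPM in luminal progenitor and 89.6 ± 24.5 CPM in basal cells. It was called lower than in basal cells in hormone-responsive and in luminal progenitor cells (edgeR, adjusted p = 2.71e-06 and 1.37e-06). No fold change is given, since its luminal levels were low and the hormone-responsive level rested on few UMIs. The ETS factor Ehf averaged 24.3 ± 1.96 CPM in hormone-responsive, 430 ± 36.7 CPM in luminal progenitor and 14.4 ± 1.95 CPM in basal cells, higher in luminal progenitor than in basal cells by 4.92 ± 0.31 and lower in hormone-responsive than in luminal progenitor cells by -4.14 ± 0.08 (edgeR, adjusted p = 2.02e-07 and 3.08e-07).

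Tfcp2l1 and Grhl1, of the grainyhead family, were higher than in basal cells in hormone-responsive (3.30 ± 0.47 and 2.75 ± 0.91) and luminal progenitor cells (3.83 ± 0.99 and 3.13 ± 0.34). Ovol1 was lower in both (-2.98 ± 0.33 and -1.91 ± 1.03), and Klf5 was lower in hormone-responsive than in basal (-2.45 ± 0.56) and than in luminal progenitor cells (-1.55 ± 1.29, a call lost without library 2 or 3). Ovol2 was lower in hormone-responsive than in luminal progenitor cells (-1.73 ± 0.64, lost without library 3). The call of Snai1 in luminal progenitor over basal cells (-1.26 ± 0.63) was lost without any 1 of the libraries. In casein-rich over other luminal progenitor cells, Pkp1 (-1.62 ± 0.72) and Dsp (-1.11 ± 0.87) were lower in edgeR with the library block. Tfcp2l1 (1.42 ± 0.51) was higher there. None of these 3 was called without the block. DESeq2 gave no adjusted p for Pkp1 or Dsp, so it gives no verdict on them.

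**Figure D5:**
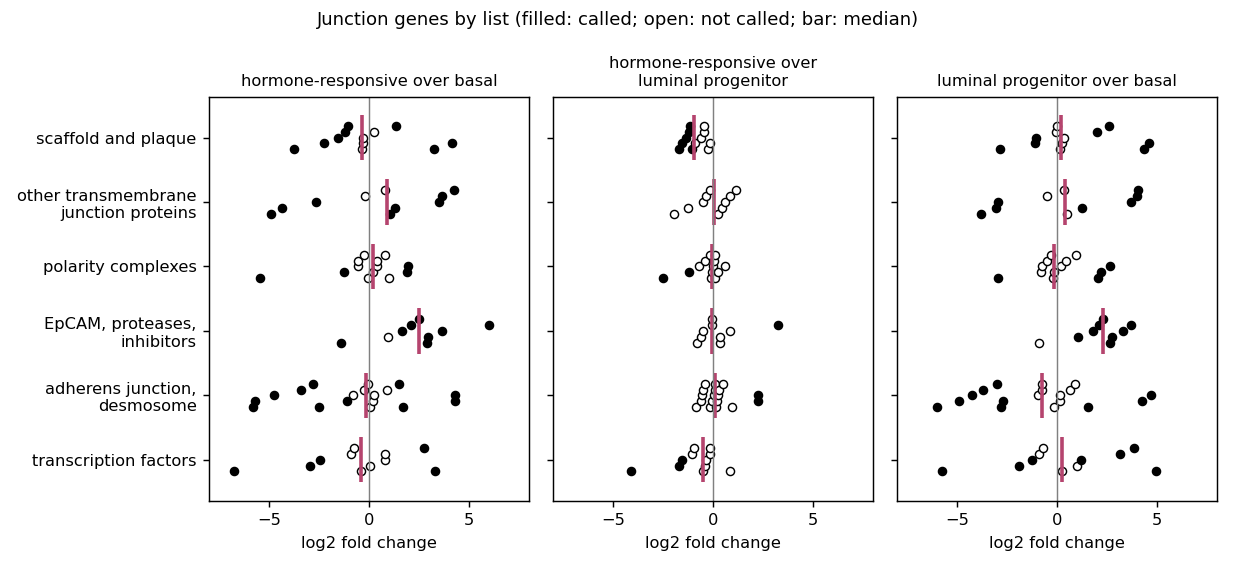
Fitted log2 fold change of the tested genes of 6 lists of junction proteins and regulators in 3 comparisons of cell classes; filled points were called, open points were not, and red bars are list medians. The list of EpCAM, proteases and inhibitors lies mostly to the right of 0 against basal cells (medians 2.50 and 2.28), and the scaffold list lies to the left in hormone-responsive over luminal progenitor cells (median -0.97).

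The genes whose levels over the 9 sums were most like those of each gene were found by Pearson's r of log2 CPM among 6493 or 6494 genes with a mean of at least 20 CPM. The sums share libraries and classes, so r is a description, and high values are common: 62 to 188 genes per member were above 0.95. Cldn3 was nearest to Selenbp1 (0.998), Rbm47 (0.994) and Pts (0.994), Cldn4 to the luminal keratin Krt18 (0.989), Cln6 (0.989) and Clic1 (0.988), and Cldn7 to the sodium pump subunit Atp1b1 (0.998), Mansc1 (0.998) and the nectin Pvrl4 (0.997). Cldn8 was nearest to the tetraspanin Cd82 (0.995), Gstt2 (0.994) and the peptide receptor Vipr1 (0.993). Ocln was nearest to Syne4 (0.981), Gdpd3 (0.980) and Tfcp2l1 (0.979), and Cldn1 to the transcription factor Foxc1 (0.997), Xdh (0.993), an enzyme of milk fat secretion, and the zinc transporter Slc39a14 (0.992).

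Between the members themselves, r over the 9 sums lay between 0.880 (Cldn8 and Ocln) and 0.987 (Cldn3 and Cldn7) for the 5 genes high in both luminal classes. Cldn1 stood apart, with r between -0.13 (Cldn8) and 0.29 (Ocln).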

How the data were processed

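UMI counts per gene and cell barcode were deposited by the authors for 3 libraries as unnormalised whole numbers; Cell Ranger 2.1.0 and build mm10 are named per the submitters' processing notes, while gene annotation and cell calling were not given in the sources used here. Libraries were made with 3′ v2 droplet chemistry, per the labels' protocols. The other steps were computed here.

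Barcodes with at least 500 genes and under 10% of UMIs from 13 mitochondrial genes were kept (26320 of 26845). Scrublet in scanpy 1.11.5 scored doublets, and the top 0.8% per 1000 barcodes of each library were removed (340, 646 and 982), which left 24352 cells. Counts were summed per library and class into 9 sums of 1248867 to 11795218 UMIs. The classes within a library were sorted together as 1 suspension, so the library pairs the sums by construction and was a block in the model. edgeR 4.0.16 (R 4.3.3) was run with TMM factors, filterByExpr and the quasi-likelihood test over 12643 genes, with the 11 class-rule genes left out. The casein split used libraries 2 and 3 (at least 20 cells per sum) and 10750 genes. SDs of ratios are from log2 CPM with a prior count of 2. Binomial and Poisson intervals are exact at 95% and, like the limit of 3 counts, cover counting error only. Levels between libraries used a pseudocount of 1 CPM. The scripts were tested on simulated data.

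The genes and lists (151 genes, 144 in the tables) were chosen with earlier results of these data known. Named genes were the 6 junction genes, up to 4 called genes of each list with the largest change in a comparison and up to 2 called the opposite way, and for each junction gene the 3 most similar genes; others are named as examples after their values were seen. Alternatives were DESeq2 1.42.0, its size factors, total counts alone, no filter, no block, each library left out, other class margins and floors, no doublet removal, deeper cells, thinned sums and a 5% casein split. Gene positions are from the GENCODE annotation of mm10 and promoter letters from RefSeq (GRCm38.p6). A result for 1 gene is not reported here.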

Additional observations from a re-analysis of the deposited data

How the results depend on the processing

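Over the alternatives, 301 values of the 6 junction genes kept their direction and side of the threshold, 3 turned in sign (all Cldn7) and 2 lost a call (Cldn8, given above); 49 counts of called genes stayed within 1.5 times and 2 did not. With a library left out, the count ran from 3975 to 4757 genes for hormone-responsive over basal, 2329 to 3489 for hormone-responsive over luminal progenitor and 3390 to 4246 for luminal progenitor over basal cells. Without the library block the counts were 4344, 2865 and 3774, and no call of the 6 genes in these 3 comparisons changed. Casein-rich over other luminal progenitor cells gave 325 called genes, 90 with DESeq2 and 0 without the library block (899 at an unadjusted p below 0.05); the share called higher was 44.9%, and 58.9% with DESeq2. The cause was not tested. Leaving out a library there was not run, since it leaves 1 library and no residual degrees of freedom.

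Cldn7 turned in sign in hormone-responsive over luminal progenitor cells with total counts alone (0.062) and thinned sums (0.0091), and in casein-rich over other cells with total counts alone (-0.036). Cldn2 in hormone-responsive over basal cells turned with DESeq2's size factors (-0.048), without the filter (-0.013) and without doublet removal (-0.32), and ran from -2.20 to 0.82 with a library left out. In luminal progenitor over basal cells Cldn34c1 ran from -0.12 to 0.24 and Cldn6 from -0.048 to 0.69 with a library left out. None of these was called. The median of all genes moved by over 0.1 with total counts alone (0.08 in hormone-responsive over luminal progenitor cells, against -0.05) and without the filter (-0.16 in hormone-responsive over basal cells, against 0.00). Depth limits Cldn1 in hormone-responsive cells (7 UMIs) and Cldn8 and Ocln in basal cells. With other thinning depths, 30 shares moved by more than their SD and 6 did not. Some list counts differed with DESeq2 beside those of the EpCAM list. In luminal progenitor over basal cells it gave 8 lower adherens junction and desmosome genes. In hormone-responsive over basal cells it gave 4 higher transmembrane junction proteins and 4 lower transcription factors.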

Other observations

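Some cells were left out by the class rule because no sum reached 5 UMIs (1024, 1066 and 1576 cells in libraries 1 to 3). They held the junction transcripts other than Cldn1 at levels between those of the basal and the luminal classes or at luminal levels. By total UMIs, Cldn3 stood at 473, 591 and 728 CPM in these cells and Cldn4 at 153, 300.5 and 613 CPM. Cldn7 stood at 266, 273 and 268 CPM and Cldn8 at 21.8, 27.9 and 22.9 CPM. Ocln stood at 30.3, 45.0 and 47.7 CPM and Cldn1 at 24.4, 23.1 and 24.2 CPM. In each library this Cldn1 level lay between those of basal and luminal progenitor cells and above that of hormone-responsive cells. Cldn4 again was lowest in library 1 and highest in library 3.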
